A study of Caenorhabditis elegans with 30 samples.

Results

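The pmt-2 mutant of the nematode *Caenorhabditis elegans* was compared directly with wild-type animals in which pmt-2 had been knocked down by RNA interference (RNAi), full loss of the gene against its knockdown. The comparison is the log2 signal of the mutant minus that of wild type with RNAi, with 3 arrays in each group, 6 of the 30 arrays of the study. It could be formed for all 28387 probe sets that the deposited comparison tables hold. Where several probe sets name a gene, the brightest over all arrays was kept, which gave 25879 genes.

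RNA of whole animals was hybridised to 30 arrays from Affymetrix, 3 for each of 10 groups. The labels name the genotype of the mutant a PMT2 knockout, give no allele, and call it a control for the RNAi. Its titles name the empty RNAi vector, while its characteristics name no RNAi. The RNAi group had a wild-type background and was fed bacteria carrying pmt-2 RNAi. Wild type on the empty vector serves here as the shared reference, so values of mutant and RNAi given against it share those 3 arrays. The other 7 groups were wild type with tunicamycin, and atf-6, ire-1 and pek-1 mutants on vector or on pmt-2 RNAi. All animals were labelled young adults and, per the labels' protocols, grew from the first larval stage on plates with 25 µg/mL carbenicillin and 1 mM IPTG. Whether arrays of a group stand for separate cultures is not stated in the labels, so the p-values measure the spread between arrays, which may be technical. For SEs and p-values that spread was pooled per probe set within all 10 groups, and not taken from the compared arrays alone. For wild type with RNAi and wild type with tunicamycin, source labels and titles name each other's treatment, and the titles were followed.

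pmt-2 encodes a phosphoethanolamine methyltransferase. In nematodes PMT-1 adds the first methyl group to phosphoethanolamine and PMT-2 adds the later ones, which yields phosphocholine for phosphatidylcholine, the main phospholipid of cell membranes. Each methyl group comes from S-adenosylmethionine (SAM). Low phosphatidylcholine is known in this animal to activate SBP-1, the homologue of the lipid regulator SREBP, and its targets among the fatty acid desaturases, and to evoke the unfolded protein response (UPR) of the endoplasmic reticulum (ER). Membrane lipid is also needed for growth through the larval stages and for the germ line.

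Arrays within a group correlated across probe sets at 0.9925 or more in the mutant and 0.98 or more with RNAi, against 0.8783 to 0.9041 between the groups. The second RNAi array stood apart from its fellows, with 423 genes at least 1 log2 unit from both others, against 168 and 103 for the other RNAi arrays and 21 to 26 for the mutant arrays. The files used here carry no detection call, and log2 signals under about 5 lie near the floor of the scale, where a difference is a limit on the true size. 17783 probe sets in the mutant and 17899 with RNAi had a mean below 5. The number of arrays limits the precision, with a median standard error (SE) of 0.17 for a difference.

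The label of a young adult was checked against markers of that stage. The yolk protein gene vit-2 read 11.79, 11.55 and 11.66 with RNAi and 3.41, 3.43 and 3.37 in the mutant. The adult cuticle collagen gene col-19 read 10.17, 10.89 and 10.71 with RNAi and 3.82, 4.06 and 3.83 in the mutant. Both defining adult markers were therefore near the floor on every mutant array and bright on every RNAi array, and the mutant is called below by its genotype and not by a stage. Loss of pmt-2, developmental stage and the extent of the germ line cannot be told apart in this comparison. In RNA of whole animals, fewer cells of a type and less RNA per cell cannot be told apart either.

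The targeted gene checks the labels. pmt-2 is F54D11.1, at 4628566 to 4635252 on chromosome V. Coordinates here are those of the files, and no source used here names their genome build. It gave log2 signals of 10.08, 10.22 and 10.13 on vector, 6.80, 6.65 and 6.45 with RNAi, and 4.49, 4.82 and 4.80 in the mutant. The 3 groups did not overlap. In wild type with tunicamycin, whose source labels are exchanged with those of the RNAi group, it averaged 8.697 (8.553 to 8.862), above every array of the RNAi group as titled. The mutant stood 1.93 below RNAi (SE 0.11, 3.81-fold, limma adjusted p = 1.89e-13). Against vector the signal was 8.78% with RNAi and 2.30% in the mutant. The mutant values lie near the floor, so the fold and the percent that rest on them are limits and not measured sizes. In the other genotypes given the same RNAi, pmt-2 averaged 6.74 (atf-6 mutant), 7.47 (ire-1 mutant) and 7.20 (pek-1 mutant), so all 4 groups with RNAi kept more signal than the pmt-2 mutant. No source used here says what the mutation changes or whether the probe set lies within the changed part of the gene.

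The partner gene pmt-1 (ZK622.3, chromosome II, 5278120 to 5282508) read 11.77, 11.99 and 11.91 with RNAi and 12.14, 12.22 and 12.21 in the mutant, against a vector mean of 9.97. It lay 1.92 above vector with RNAi and 2.22 above it in the mutant. The direct difference of 0.30 (SE 0.10) passed the test with a limma adjusted p of 0.0123, but not without the first RNAi array (adjusted p = 0.0693). Its sign turned to -0.20 when arrays were centred on muscle and intestine genes.

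**Figure D1:**
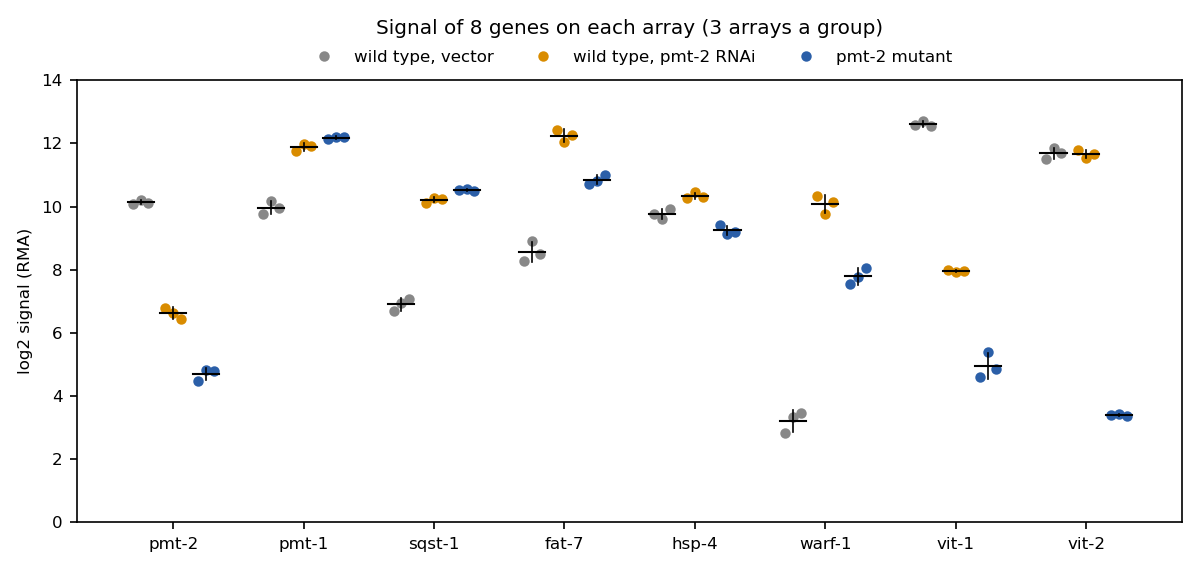
Log2 signal of 8 genes on each of 9 arrays, by group; points are arrays, horizontal bars are means and vertical bars are SDs (n = 3). pmt-2 steps down from vector to RNAi to mutant, pmt-1 and sqst-1 stand at like heights with RNAi and in the mutant, warf-1 is 2.30 lower in the mutant than with RNAi, and vit-2 falls to about 3.4 on the mutant arrays alone.

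Full loss and knockdown differed widely. Of the 28387 probe sets, 14616 (51.5%) passed limma's test at an adjusted p under 0.05, 7856 (27.7%) higher and 6760 (23.8%) lower in the mutant. A difference of at least 2-fold was found for 7542 (26.6%), 4157 (14.6%) higher and 3385 (11.9%) lower. Over genes the shares called were 52.7% in either direction, 27.6% higher and 25% lower (27.2%, 14.6% and 12.6% at least 2-fold), and the groups' arrays did not overlap for 57.8%. The counts of gene lists below are to be read against these. Without the second RNAi array 14523 probe sets passed. The split of calls depended on scaling: 53.7% of calls were higher as deposited, 72.9% with arrays centred on the median of brighter probe sets, a shift of 0.33, and 23.1% with arrays centred on muscle and intestine genes, a shift of -0.50. Differences smaller than these shifts have no settled direction. Against the shared vector arrays, 16807 probe sets (59.2%) passed in the mutant and 9467 (33.3%) with RNAi. For 15638 genes (60.4%) the 95% interval of the direct difference lay within 1 log2 unit of 0, and for 8537 (33%) within 1.5-fold. Of the 25879 genes, 16119 in the mutant and 16192 with RNAi had a mean below 5. Near the floor small differences carry little information, so these shares do not measure how far expression was alike.

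Yolk protein genes separated the groups most. Vitellogenins are made in the adult intestine and carried to oocytes. The 5 measured by a probe set that names 1 gene were all lower in the mutant, with a median difference of -8.26 on the log2 scale against 0.00 over all genes. vit-5 read 11.86, 11.55 and 11.85 with RNAi and 2.61, 2.81 and 3.35 in the mutant. vit-6 read 12.54, 12.10 and 12.43 with RNAi and 2.86, 3.96 and 3.29 in the mutant. The differences were -8.83 (SE 0.18, limma adjusted p = 1.26e-22) and -8.98 (SE 0.18, adjusted p = 8.22e-23). RNAi moved these genes unequally against vector, by -0.02 for vit-2, -0.37 for vit-6 and -1.06 for vit-5, but by -4.66 for vit-1 and -3.98 for vit-4. vit-1 read 7.98, 7.92 and 7.96 with RNAi and 4.62, 5.40 and 4.86 in the mutant, a direct difference of -2.996 (SE 0.37), and vit-4 differed by -2.70 (SE 0.43). The vitellogenin genes are close copies of each other, so reads of one probe set may include another gene's RNA.

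Genes of oocytes and the eggshell were the next lowest group. Of 38 measured, 35 were lower and 2 higher (97.4% called), with a median of -5.12. puf-5, an RNA-binding protein of oocytes, read 11.97, 11.11 and 11.78 with RNAi and 4.65, 4.19 and 3.65 in the mutant, a difference of -7.45 (SE 0.18, limma adjusted p = 2.38e-21). Its relative puf-3 differed by -6.95. pos-1 and oma-2, zinc finger proteins of oocytes and early embryos, differed by -6.81 and -6.72. On vector these 4 genes averaged 10.82 to 11.91, and RNAi moved them by -0.50 to -0.18 against vector. The list's median signal was 9.72, 8.86 and 9.46 on the RNAi arrays, lowest on the second, and 4.67 to 4.76 in the mutant. 23 of the 38 members had a mutant mean below 5, a share like that of all genes (16119 of 25879). None had an RNAi mean below 5, against 16192 of all genes.

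All 35 genes of meiosis and chromosome synapsis were lower in the mutant, by 1.47 to 5.12 log2 units, with a median of -2.96. him-3, a protein of the meiotic chromosome axis, read 8.40, 8.34 and 8.22 with RNAi and 3.14, 3.37 and 3.11 in the mutant, a difference of -5.12 (SE 0.09, limma adjusted p = 3.41e-24). htp-2, also of the axis, differed by -4.83, dsb-1, needed for meiotic double-strand breaks, by -4.60, and prom-1, which acts in meiotic entry and homologue pairing, by -4.84. All 32 germ granule and germline small RNA genes were lower as well, with the same median of -2.96. They include meg-1 (-6.12), the Argonaute genes wago-4 (-4.77) and hrde-1 (-4.13), and deps-1 of the P granules (-4.21). 

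Of 49 genes of DNA replication and the cell cycle, 48 were lower and 0 higher, with a median of -1.96. cyb-2.1, a cyclin B gene, differed by -5.81 and cyb-1 by -4.39. The cyclin genes cyb-3 and cye-1 kept more signal, with differences of -3.23 and -3.04 and mutant means of 8.03 and 6.22. Only 6 of the 49 had a mutant mean below 5, against 29 of the 35 meiosis genes and 16119 of all 25879 genes.

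Sperm genes were lower in 33 of 37 measured members, with a median of -1.95, and none was higher. The list held 69 genes, of which the others had no probe set that names 1 gene. nspd-1 (ZK484.8) read 9.72, 10.37 and 10.34 with RNAi and 2.41, 1.96 and 1.97 in the mutant, a difference of -8.03 (SE 0.32, limma adjusted p = 8.33e-17). The major sperm protein gene msp-78 differed by -6.58, with the reservation that its copies are nearly identical. sss-2 and sss-1, genes of sperm, differed by -6.04 and -4.73. Sperm genes stood above vector with RNAi (list median 0.52) and below it in the mutant (-1.11). 34 of the 37 had a mutant mean below 5, where differences between members have little resolution, and 17 had an RNAi mean below 5. Of all 25879 genes, 16119 and 16192 did.

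Of 18 genes listed for the spermatheca, sheath and uterus, 10 were higher and 7 lower, with a median of 0.48 that turned to -0.02 with arrays centred on muscle and intestine genes. The lower ones were led by the innexins, gap junction proteins that couple sheath cells to germ cells. inx-8 and inx-9, made in the sheath, differed by -4.87 and -3.51. inx-22 and inx-14, 2 of the 7, are made in germ cells and not in the somatic gonad, and differed by -4.72 and -3.46. Among the members higher in the mutant were plc-1 (2.15), a phospholipase C of the spermatheca, and egl-13 (1.89), a transcription factor of the uterus.

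**Figure D2:**
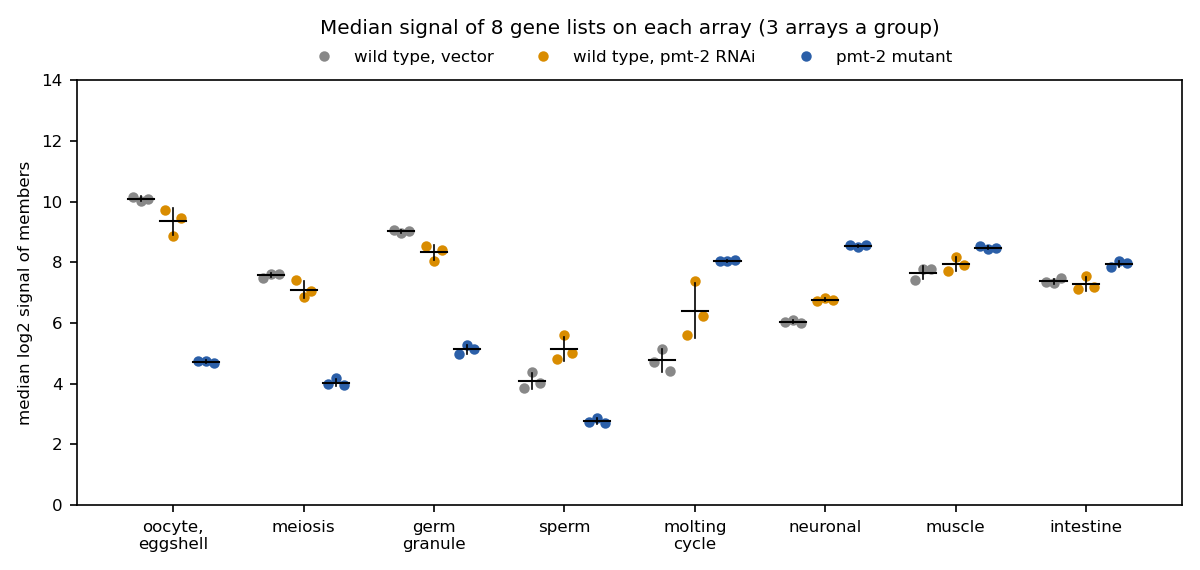
Median log2 signal over the members of 8 gene lists on each of 9 arrays, by group; points are arrays, horizontal bars are means and vertical bars are SDs (n = 3). The oocyte, meiosis and germ granule lists stand between 3.97 and 5.28 on mutant arrays and at 6.85 or above on the RNAi arrays, the moulting list stands at 8.03 to 8.08 on mutant arrays, and its RNAi values spread from 5.60 to 7.40.

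Cuticle genes moved far in both directions. Of 102 measured collagen and cuticle genes, 35 were higher and 41 lower (74.5% called). Nearly all of these calls were at least 2-fold. Of the 102 members, 31 were at least 2-fold higher and 39 at least 2-fold lower. Of all 25879 genes, 3787 (14.6%) and 3250 (12.6%) were. The largest falls were col-181, which read 10.77, 11.13 and 11.05 with RNAi and 3.95, 4.13 and 3.82 in the mutant (-7.02, SE 0.10, limma adjusted p = 9.03e-26), and col-81 (-6.72), col-19 (-6.69) and col-20 (-6.26). bli-1 and bli-2, collagens of the struts of the adult cuticle, differed by -2.31 and -3.52. The annular furrow collagens dpy-2, dpy-3, dpy-7, dpy-8, dpy-9 and dpy-10, made anew in each moult, were all higher in the mutant, by 2.14 to 2.95. rol-6, sqt-1 and sqt-2, further body-shape collagens, were higher by 2.06, 2.71 and 2.24. col-41 (T10B10.1, chromosome X, 15174969 to 15176411) read 3.26, 4.41 and 4.22 with RNAi and 9.30, 9.19 and 9.38 in the mutant, a difference of 5.32 (SE 0.21). The second RNAi array moved these counts: without it, 44 were higher and 39 lower. Against all 4 genotypes with RNAi, 28 were higher and 48 lower. Centred on muscle and intestine genes the counts were 28 and 52, and centred on brighter probe sets 42 and 39. Many collagen genes are similar in sequence, and their probe sets may share signal.

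Moulting genes were higher in the mutant in 30 of 34 members and lower in 1, with a median of 2.01. nhr-25, a nuclear receptor needed for moulting, read 5.89, 5.52 and 5.60 with RNAi and 8.98, 8.85 and 8.94 in the mutant, a difference of 3.25 (SE 0.23, limma adjusted p = 5.52e-12). bed-3, a zinc finger factor of the moulting cycle, differed by 2.65. The hedgehog-related genes wrt-1 and wrt-2 differed by 2.86 (SE 0.29) and 2.82 (SE 0.40). For wrt-2 the RNAi arrays read 5.41, 7.33 and 5.73, so the second lay nearer to the mutant (8.88 to 9.14) than its fellows did. lin-29, which drives the adult fate of the skin, was the member lower in the mutant (-0.62, SE 0.18), a call that was lost without the second RNAi array and when centred on brighter probe sets, with 30 members higher and 0 lower in both. Moulting genes also lay above vector with RNAi (list median 1.04 against 3.11 in the mutant), with array medians of 4.42 to 5.16 on vector. Without the second RNAi array the direct median was 2.48.

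Genes of phosphoethanolamine methylation and of the methyl cycle that feeds it were mostly lower in the mutant, 12 of 18 against 4 higher, with a median of -0.77. The list includes the target pmt-2, itself among the 12, and pmt-1, among the 4. sams-1, the SAM synthetase known for phosphatidylcholine synthesis, read 9.59, 10.21 and 9.75 with RNAi and 10.09, 10.14 and 10.08 in the mutant. Its groups overlapped, and the difference of 0.25 (95% interval 0.014 to 0.49, limma adjusted p = 0.0727) did not pass. Both groups were below the vector mean of 10.98. The other SAM synthetases sams-3, sams-4 and sams-5 were lower by 1.31, 0.68 and 2.42. sams-5 was dim, with means of 3.42 on vector, 5.03 with RNAi and 2.61 in the mutant. Its difference thus includes a rise of 1.61 with RNAi and is a limit. mtrr-1, which reactivates methionine synthase, was lower by 1.34 and metr-1, the methionine synthase itself, by 0.65. ahcy-1, which clears the by-product S-adenosylhomocysteine, was lower by 0.86. The folate transporter family genes moved apart. folt-2 read 5.73, 6.25 and 5.93 with RNAi and 4.98, 4.87 and 4.50 in the mutant (-1.19, SE 0.25), both far below the vector mean of 10.56, while folt-1 was 1.33 higher in the mutant.

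Downstream of phosphocholine, 11 of 22 genes of choline and phospholipid head-group synthesis were lower and 3 higher (11 and 10 centred on brighter probe sets). pcyt-1, whose product makes CDP-choline from phosphocholine, was lower by 0.90, and cept-1 and cept-2, which join head group to diacylglycerol, by 0.88 and 0.75. ckb-2, a choline kinase gene that was raised by RNAi, read 9.11, 8.82 and 8.85 with RNAi and 7.69, 7.45 and 7.71 in the mutant, against a vector mean of 7.12. The direct difference was -1.31 (SE 0.23, limma adjusted p = 2.38e-05), and the mutant's difference from vector (0.50) did not pass (adjusted p = 0.0668). The choline kinase gene cka-2 was instead 1.20 higher in the mutant. pssy-2, a phosphatidylserine synthase gene, was lower by 2.84. Among 20 glycerophospholipid acyltransferase genes 5 were higher and 9 lower (7 and 7 centred on brighter probe sets); mboa-1, a homologue of mammalian cholesterol acyltransferases, was 2.97 higher, and the acyltransferase gene acl-3 2.37 lower.

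The delta-9 desaturases convert stearic and palmitic acid to monounsaturated fatty acids. fat-7 read 12.43, 12.04 and 12.28 with RNAi and 10.73, 10.82 and 11.02 in the mutant, against a vector mean of 8.57. It was higher than vector in both, and 1.40 lower in the mutant than with RNAi (SE 0.18, 2.63-fold, limma adjusted p = 2.3e-07). fat-6 read 11.81, 11.83 and 11.69 with RNAi and 11.66, 11.69 and 11.81 in the mutant. Those groups overlapped and the difference of -0.06 (95% interval -0.28 to 0.17, adjusted p = 0.721) did not pass. fat-5 was 0.61 lower (SE 0.25, adjusted p = 0.0413), a call that was lost without any single array of the 6 (adjusted p 0.0619 to 0.0947). Upstream of them, sbp-1 was 1.20 higher in the mutant and mdt-15, a Mediator subunit that works with it, 0.76 higher. fasn-1, fatty acid synthase, was 1.00 higher.

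Across all 27 genes of fatty acid synthesis and desaturation, 7 were higher and 13 lower, with a median of -0.15 that turned to 0.18 when centred on brighter probe sets. The elongase genes elo-7 and elo-8 were 2.45 and 1.57 lower, from RNAi means below 5. Of 48 genes of fatty acid oxidation and lipolysis, 14 were higher and 20 lower, and 21 and 15 when centred on brighter probe sets. acs-2, an acyl-CoA synthetase gene of the fasting response, stood 3.36 above vector with RNAi and 2.77 above it in the mutant. Its direct difference of -0.60 (adjusted p = 0.0359) was lost without the second RNAi array (-0.40, adjusted p = 0.209), without mutant array 2 (adjusted p = 0.0632) and without mutant array 3 (adjusted p = 0.141). acdh-1, an acyl-CoA dehydrogenase gene, stood far below its vector mean of 9.77 in both groups, and its direct difference of -0.62 (95% interval -1.23 to -0.0050, adjusted p = 0.0882) did not pass. acdh-8, a relative, was lower by 2.83. In carbohydrate metabolism, the trehalose synthase genes tps-1 and tps-2 were 1.19 and 0.78 higher and pck-1, of gluconeogenesis, 1.05 higher in the mutant; tps-2 no longer passed when centred on muscle and intestine genes (adjusted p = 0.0649).

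The ER chaperone hsp-4, a homologue of mammalian BiP and the standard reporter of the UPR in this animal, was lower in the mutant. It read 9.77, 9.59 and 9.91 on vector, 10.28, 10.45 and 10.29 with RNAi, and 9.41, 9.13 and 9.21 in the mutant. RNAi lay 0.58 above vector (adjusted p = 0.00152) and the mutant 0.51 below it (adjusted p = 0.0022), and the direct difference was -1.09 (SE 0.14, 2.13-fold, limma adjusted p = 1.5e-07). Calls of the mutant against vector also followed the scaling, with 8074 higher and 8733 lower as deposited and 12404 and 5044 centred on brighter probe sets. The differences of hsp-4 from vector are given as deposited only, so their direction under other scalings is not settled here. hsp-3, the other BiP homologue, read 10.46, 10.49 and 10.19 with RNAi and 10.15, 10.18 and 10.24 in the mutant. Its difference of -0.19 (95% interval -0.42 to 0.032, adjusted p = 0.153) did not pass. Of 23 ER chaperones and folding enzymes, 6 were higher and 9 lower; with arrays centred on brighter probe sets the counts were 13 and 6, and centred on muscle and intestine genes 0 and 16. 

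Of the 3 UPR sensors, ire-1 was 0.72 lower in the mutant (SE 0.10; 0.05 higher against the mean of all 4 genotypes with RNAi, of which 1 is the ire-1 mutant), atf-6 was 1.14 higher (9.39, 9.28 and 9.34 against 8.24, 8.24 and 8.12 with RNAi), and pek-1 differed by 0.01 (95% interval -0.21 to 0.23, adjusted p = 0.947), with both groups 1.1 above vector. xbp-1, the transcript that IRE-1 splices, was 0.37 higher (adjusted p = 0.000893). That sign turned to -0.13 when centred on muscle and intestine genes. Total signal of xbp-1 does not tell spliced from unspliced transcript. rtcb-1, the ligase that completes the splicing, was 1.31 lower. Genes of ER-associated degradation were lower in 17 of 19 members and higher in 0, with a median of -0.50. erl-1, ubxn-4, cdc-48.2 and npl-4.1 were lower by 1.59, 1.33, 1.12 and 1.09. Centred on brighter probe sets, 9 were lower and 2 higher.

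**Figure D3:**
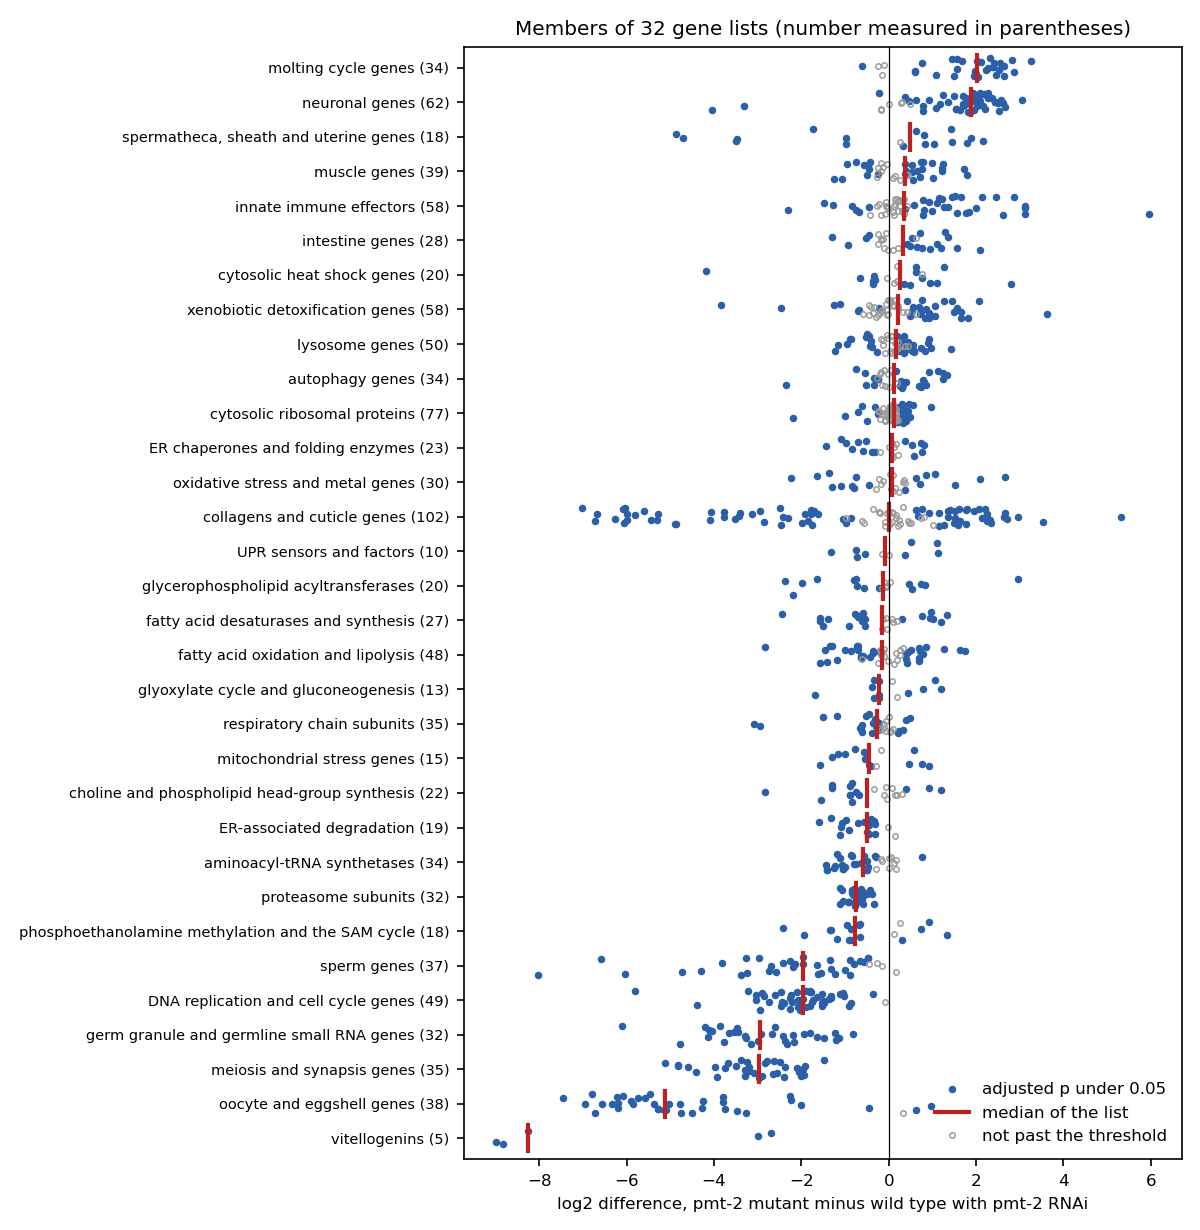
Log2 difference of the mutant minus RNAi for each measured member of 32 gene lists, ordered by list median (red bar); filled points passed limma's test. Yolk, oocyte, meiosis, germ granule, cell cycle and sperm genes lie to the left, moulting and neuronal genes to the right, and collagens reach from -7.02 to 5.32.

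sqst-1, the autophagy receptor homologous to p62, was high in both groups. It read 6.68, 6.95 and 7.09 on vector, 10.13, 10.27 and 10.26 with RNAi, and 10.51, 10.57 and 10.51 in the mutant. Against the step of 3.31 from vector to RNAi, the further difference to the mutant was 0.31 (95% interval 0.094 to 0.53, limma adjusted p = 0.0147). It did not pass without the first RNAi array (adjusted p = 0.0636), and was -0.19 centred on muscle and intestine genes. lgg-1, an Atg8 homologue, differed by 0.33 (adjusted p = 0.00828), and by -0.17 under that centring. hlh-30, the homologue of TFEB that switches on autophagy and lysosome genes, read 8.81, 9.31 and 9.18 with RNAi and 10.35, 10.37 and 10.32 in the mutant, a difference of 1.25 (SE 0.14, adjusted p = 1.43e-08). dct-1, a mitophagy receptor, was 1.33 higher and the autophagy scaffold gene epg-7 1.24 higher, while sepa-1, a P granule adaptor of autophagy, was 2.34 lower. sepa-1 was dim in both groups, with scattered RNAi arrays (5.61, 3.70 and 4.84) and a mutant mean of 2.38, so its difference is a limit. Of 34 autophagy genes 16 were higher and 8 lower, with a median of 0.11; centred on muscle and intestine genes, 6 were higher and 16 lower.

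To compare the groups over genes chosen on other arrays, responders were taken from the atf-6, ire-1 and pek-1 mutants. There RNAi minus vector was at least 1 in each mutant, and its mean over them passed the test. In those mutants 6.04% of genes passed at least 2-fold higher and 0.885% at least 2-fold lower. Of 658 genes raised there, 403 (61.2%) were higher in the pmt-2 mutant than in wild type with RNAi, 193 (29.3%) were lower and 62 did not pass. Their median direct difference was 0.99. Their median against vector was 1.59 with RNAi and 2.73 in the mutant. However, 164 of the 658 lay below the vector mean in the pmt-2 mutant, opposite to the rise by which they were chosen. Of 38 genes lowered there, 26 (68.4%) were lower still in the mutant, 3 were higher and 9 did not pass, with a median of -1.11. A mutant mean below 5 was found for 24 of the 26, against 16119 of all 25879 genes. The falls of those 24 are limits and not measured sizes. The target pmt-2 is itself 1 of the 38 and 1 of the 26. Centred on muscle and intestine genes, the rule took 126 raised and 1010 lowered genes, so these numbers depend on scaling.

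Raised responders that were lower in the mutant were mostly dim there. Over all 25879 genes, 16119 had a mutant mean below 5, and a call in either direction itself selects on the mutant signal. Of the 193 lower in the mutant, 170 had a mutant mean below 5, against 2 of the 403 higher in it. All 5 sperm genes among them were lower (fer-1, spe-4, spe-41, ssp-16 and sss-2). All 15 moulting genes and all 18 neuronal genes among them were higher, lists in which 88.2% and 85.5% of all members were higher. The 30 collagen and cuticle genes, the largest list among them, split 19 higher to 8 lower, and the 7 genes of fatty acid synthesis and desaturation 3 to 3. The largest differences were those of sss-2 (-6.04), F36H12.9 (-5.66), K06A5.2 (-5.46), col-38 (-5.29), C31H1.5 (-5.02) and, in the other direction, C01G10.5 (5.23). For col-38 the RNAi arrays read 6.93, 9.95 and 8.31, so its size rests in part on the second one. The smallest differences were those of T22B7.3 (0.0026), T24B8.4 (-0.02), mab-31 (0.02), lact-2 (0.03), abu-6 (-0.03) and F36F2.2 (0.04). For T22B7.3 the arrays read 7.89, 8.21 and 7.81 with RNAi and 7.993, 7.929 and 8.001 in the mutant, both about 1.8 above vector. abu-6, with RNAi arrays at 5.998, 8.349 and 7.106, has an SE of 0.41, so its small difference is poorly determined. For 78 of the 658, the 95% interval lay within 1 log2 unit of 0.

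Among the lowered responders, T12G3.6 (-3.79), T13F3.6 (-3.38), F59D8.3 (-2.98), col-93 (-2.96), T27A10.8 (-2.85) and vit-1 showed the largest falls from RNAi to mutant. F59D8.3 (chromosome X, 3563803 to 3563978) overlaps the end of vit-4 (3558826 to 3563961), so their signals may not be separate. The genes that stood alike in the groups were F09C8.1 (0.10), F58G6.3 (-0.10), grd-3 (0.10), C23H5.8 (-0.10), Y47H9A.4 (-0.18) and the lysosomal lipase gene lipl-1 (-0.20). warf-1 (F45E4.1, chromosome IV, 7634821 to 7635696), of the ARF family of small GTPases, read 10.34, 9.78 and 10.16 with RNAi and 7.54, 7.77 and 8.06 in the mutant from a vector mean of 3.21, a direct difference of -2.30 (SE 0.18, limma adjusted p = 6.65e-11). tbb-6, a beta-tubulin gene induced by stress, read 10.13, 10.33 and 9.98 with RNAi and 9.16, 9.34 and 9.40 in the mutant, a difference of -0.84 (SE 0.16).

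**Figure D4:**
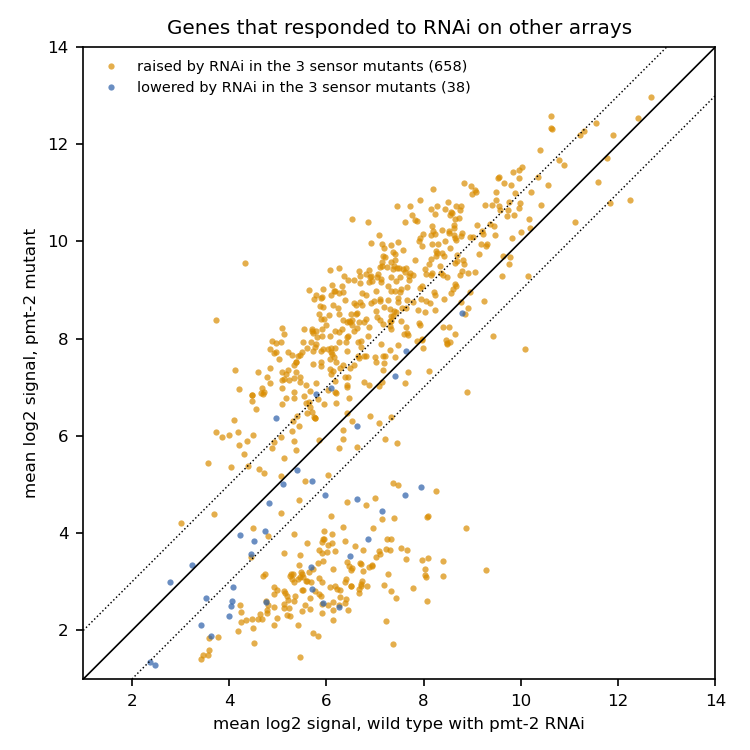
Mean log2 signal in wild type with pmt-2 RNAi (x) and in the pmt-2 mutant (y) for the 658 genes raised and 38 genes lowered by the RNAi in all 3 sensor mutants; the solid line marks equality and dotted lines a 2-fold difference (n = 3 arrays each). Most raised genes lie above the line, and a separate cloud of them lies below it with mutant signals under 5.

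As deposited, immune and detoxification genes were more often higher than lower, which did not hold for detoxification genes under another scaling. Of 58 innate immune effectors, 27 were higher and 7 lower, with a median of 0.35. The C-type lectin gene clec-17 read 2.86, 3.81 and 3.02 with RNAi and 9.28, 9.29 and 9.02 in the mutant, a difference of 5.97 (SE 0.25, limma adjusted p = 2.08e-16). nlp-34, an antimicrobial peptide gene of the skin, was 3.12 higher and clec-86 3.11 higher. dod-24 crossed its vector mean of 8.61: it read 6.45, 6.64 and 6.32 with RNAi and 9.51, 9.74 and 9.51 in the mutant (3.11, SE 0.21). Of 58 xenobiotic detoxification genes, 25 were higher and 7 lower, but 15 and 21 when centred on muscle and intestine genes, where the immune counts were 20 and 15. The glucuronosyltransferase gene ugt-18 was 3.62 higher and the cytochrome P450 gene cyp-34A9 2.06 higher, while cyp-31A2 and cyp-31A3, P450 genes of eggshell formation, were 3.84 and 2.46 lower. Both medians, 0.35 and 0.21, turned negative (-0.15 and -0.29) when centred on muscle and intestine genes.

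The balance of the other stress lists followed the scaling. Of 20 cytosolic heat shock genes, 9 were higher and 6 lower, against 13 and 1 centred on brighter probe sets and 3 and 8 centred on muscle and intestine genes. sip-1, a small heat shock protein of oocytes and embryos, read 12.36, 12.20 and 12.43 with RNAi and 8.22, 8.19 and 8.04 in the mutant (-4.18, SE 0.09). hsp-12.6, a small heat shock protein of arrested larvae, was 2.79 higher. Of 30 oxidative stress and metal genes, 8 were higher and 9 lower, against 16 and 8 and then 4 and 16 under the same centrings. The metallothionein genes moved apart, mtl-1 2.67 higher and mtl-2 1.31 lower, and the ferritin gene ftn-1 was 2.09 higher. Of 15 mitochondrial stress genes, 4 were higher and 9 lower, among them the chaperone gene hsp-60 (-0.999) and the protease genes lonp-1 (-1.56) and spg-7 (-1.29). The 50 lysosome genes split 20 higher to 12 lower, all within 1.42, and 4 to 26 when centred on muscle and intestine genes.

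Proteasome genes were lower throughout. All 32 proteasome subunit genes were lower in the mutant, by 0.33 to 1.12, with a median of -0.74, and 28 remained lower and 0 higher when centred on brighter probe sets. rpn-7, of the regulatory lid, read 9.95, 9.71 and 9.65 with RNAi and 8.59, 8.74 and 8.63 in the mutant (-1.12, SE 0.09). Of 34 aminoacyl-tRNA synthetase genes, 24 were lower and 1 higher, with a median of -0.60, against 18 and 7 centred on brighter probe sets. Of 77 cytosolic ribosomal protein genes, 26 were higher, 7 lower and 44 did not pass (42.9% called, below the 52.7% over all genes). Their direction followed the scaling, with 65 higher and 3 lower centred on brighter probe sets and 1 and 44 centred on muscle and intestine genes; without mutant array 2 the higher count was 15 and without the first RNAi array 13. rpl-11.1 and rpl-11.2 encode forms of the same ribosomal protein, and the first, the germline form, was 2.20 lower while the second was 0.97 higher. In the respiratory chain asb-1, a germline form of an ATP synthase subunit, was 2.94 lower and ucr-2.3 3.09 lower. Their relatives asb-2, ucr-2.1 and ucr-2.2 differed by 0.48, 0.25 and 0.20, less than the shift of the centrings, so their direction is not settled. Of 35 respiratory genes, 20 were lower and 5 higher, against 8 and 12 centred on brighter probe sets and 30 and 0 centred on muscle and intestine genes. The 5 became 2 without mutant array 2, and 3 without the first RNAi array.

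Neuronal genes were higher in the mutant in 53 of 62 members and lower in 3, with a median of 1.88. daf-7, a TGF-beta ligand of sensory neurons, read 6.80, 7.20 and 6.75 with RNAi and 10.04, 10.08 and 9.81 in the mutant (3.06, SE 0.16, limma adjusted p = 1.99e-14). The neuropeptide gene flp-1 was 2.66 higher, and unc-13 and snt-1, of synaptic vesicle release, were 2.27 and 2.23 higher. The members far below 0 were tbh-1 (-4.04) and tdc-1 (-3.30), enzymes of octopamine and tyramine synthesis that are also made in the gonadal sheath. The list median was 6.72 to 6.83 on RNAi arrays and 8.52 to 8.58 on mutant arrays, with no overlap.

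Muscle and intestine genes, by contrast, moved less. Of 39 muscle genes 18 were higher and 10 lower, with a median of 0.36, led by the calcium channel genes unc-68 (1.78) and egl-19 (1.73) and, downward, the troponin gene tnt-2 (-1.26). Of 28 intestine genes 13 were higher and 4 lower, with a median of 0.32, led by ftn-1 and gem-4 (1.57). elt-2, the main GATA factor of the intestine, differed by 0.42, less than the shift of the centrings. Centred on these lists themselves, the medians were -0.14 for muscle and -0.18 for intestine. The intestine list, with its small differences, stands beside vitellogenin genes of the same tissue that were 2.70 to 8.98 lower.

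The 10 genes with the largest higher and lower differences were fixed by rule. Higher in the mutant were clec-174 (6.52), clec-17, col-41, C01G10.5, C18H7.1 (5.21), C05G5.7 (5.06), 6R55.2 (5.02), clec-72 (4.74), R05H11.2 (4.66) and T14B1.1 (4.62). clec-174 (Y46C8AL.2, chromosome IV, 3940207 to 3941696) read 2.40, 2.26 and 3.47 with RNAi and 9.23, 9.14 and 9.35 in the mutant, and clec-72 lies near it at 3944801 to 3947358. R05H11.2 read 3.09, 4.99 and 3.11 with RNAi. Lower were vit-6, vit-5, vit-2, ule-3 (-8.06), nspd-1, D1054.10 (-7.84), F26B1.8 (-7.78), C39D10.7 (-7.56), puf-5 and D1086.10 (-7.40). ule-3 (D1054.11, chromosome V, 10793775 to 10794904), whose product is secreted in the uterus, read 10.79, 10.44 and 10.63 with RNAi and 2.40, 2.59 and 2.68 in the mutant, and D1054.10 lies beside it. For these 20 genes the RNAi mean lay within 1.59 of vector, whereas the mutant differed from vector by 5.004 to 9.89.

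Position on the chromosomes was a property the comparison did not use. At least 2-fold lower in the mutant were 21.8% of 3325 genes on chromosome I, 14.4% on II, 18.2% on III, 16.2% on IV, 8.43% on V and 3.43% of 4983 on X. The shares at least 2-fold higher were alike, from 13.1% on I to 16.9% on X. Genes of the X chromosome are known to be largely silent in the germ line. These shares are a description with no test, since genes on a chromosome are not independent.

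**Figure D5:**
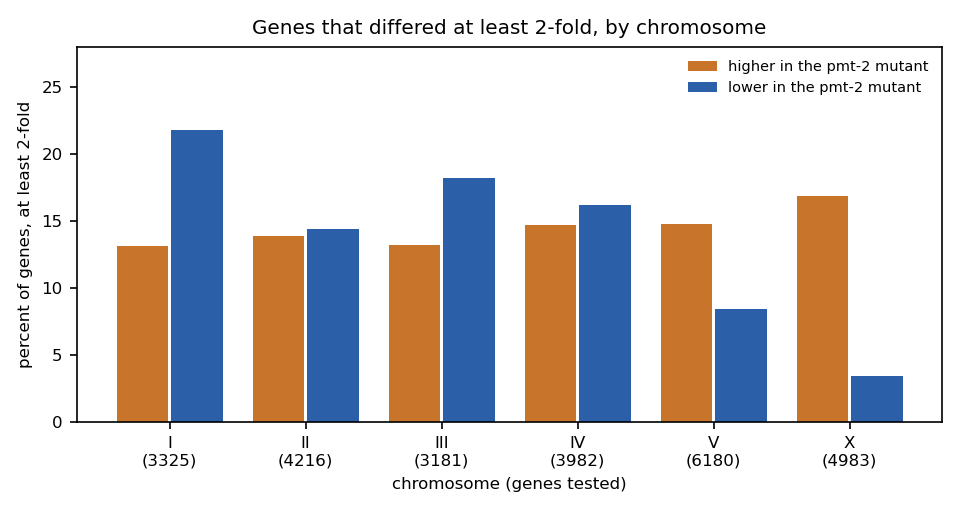
Percent of genes at least 2-fold higher (orange) and at least 2-fold lower (blue) in the pmt-2 mutant than with pmt-2 RNAi, by chromosome, with the number of genes tested in parentheses (limma adjusted p under 0.05). The lower share drops from 21.8% on I to 3.43% on X while the higher share stays between 13.1% and 16.9%.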

How the data were processed

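Each of 30 arrays was put in 1 of 10 groups by its title. The deposited log2 values per array come from RMA according to the submitters' processing notes, without a version. The deposited comparison tables hold a Tukey biweight mean and an SD of the same log2 signals per group, per the file headers. The SDs computed from the array values matched the deposited ones within 0.005, which settles the scale. Differences of plain means and of deposited biweight means correlated at 0.9944 over probe sets (median gap 0.0587, largest 0.9026). No array column was left out (0 unmapped).

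limma 3.58.1 in R 4.3.3 was fitted to all 30 arrays (20 residual degrees of freedom, 24.3 with the prior), with Benjamini-Hochberg adjustment over 28387 probe sets, a two-sided test and a threshold of 0.05. 25930 probe sets name 1 gene, 651 several and 1806 none. Of them 25597 matched the RefSeq gene table (WBcel235), which updated 2553 symbols. On data simulated for these groups (10 runs, 28387 probe sets, 200 changed), the fit found 37.2% of 1.5-fold, 83.1% of 2-fold and 99.5% of 4-fold changes, 8.51% of calls were false and 0 had the wrong sign. The 200 changed probe sets are far fewer than the 14616 that passed in the data. Recovery and the share of false calls depend on that number, so these rates do not describe the comparison above. 95% intervals of single differences are not adjusted for the number of genes.

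The 32 gene lists (1112 genes, 10 in over 1 list), the comparison and the rule for naming genes were chosen with earlier results of these data known. Genes named are the targets, the 10 largest differences each way, the 4 largest of each list past the threshold, the 6 largest and 6 smallest of the responders, and a fixed set for the biology. Other members of a list are named for their known role, after their values were seen. Alternatives were 3 centrings, array weights, the deposited means, the spread of the 6 compared arrays alone, a variance trend, a filter on dim probe sets, a replicate block, all 4 genotypes with RNAi, and each array left out. The muscle and intestine centring was added after the data were seen. Same-numbered arrays did not deviate together (correlations -0.00278, 0.0209 and -0.00614), so replicate numbers do not pair them.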

Additional observations from a re-analysis of the deposited data

Results flagged for a closer look

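The value table holds 930 features outside the comparison tables, which no comparison above used. Of these, 233 (25.1%) passed limma's test between the pmt-2 mutant and wild type with RNAi, 53 higher and 180 lower in the mutant, with a median difference of -0.09 and a largest difference of 3.54 in size. The share is below the 51.5% of probe sets that passed in the main comparison. They are given here because they lie outside the main measurement. They have no gene name in the files used here, and no further value was drawn from them.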

How the results depend on the processing

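The count of probe sets that differed (14616) stayed between 9765 and 18945 and that of at least 2-fold (7542) between 5335 and 8377. With the replicate block 14618 passed, and leaving out 1 array gave 13773 to 14523. The raised responders that differed (596) became 105 when centred on muscle and intestine genes, and the lowered ones (29) became 899, 18 centred on brighter probe sets and 16 without dim probe sets. Without dim probe sets 10362 probe sets differed between mutant and vector. Between RNAi and vector 5914 did with the deposited means and 5634 with the spread of the groups compared only. Other probe sets of a gene gave no value, since 0 named genes have another. Of 161 named genes past the threshold, 152 kept direction and call under every alternative run. Of their 2561 values, 23 no longer passed and 5 changed sign, and of 1024 list counts 926 stayed within 1.5 times.

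Signs turned as follows; the shift of the centring accounts for the first 3 groups by construction, and for the others the cause was not tested. Centred on muscle and intestine genes: pmt-1 -0.20, sqst-1 -0.19, lgg-1 -0.17, xbp-1 -0.13, sams-1 -0.25, pek-1 -0.49, T22B7.3 -0.50, lact-2 -0.48, mab-31 -0.48, F36F2.2 -0.46, F09C8.1 -0.40 and grd-3 -0.40. Centred on brighter probe sets: C23H5.8 0.23, F58G6.3 0.23, T24B8.4 0.31, Y47H9A.4 0.15, abu-6 0.30, fat-6 0.28, hsp-3 0.14 and lipl-1 0.13. Centred on the median: F36F2.2 -0.0052, T22B7.3 -0.04, lact-2 -0.0153, mab-31 -0.0231 and pek-1 -0.0317. With array weights: F58G6.3 0.0791, abu-6 0.0077, fat-6 0.0381 and mab-31 -0.0144. With deposited means: F36F2.2 -0.05, F58G6.3 0.06 and mab-31 -0.04. With all 4 genotypes given RNAi: ire-1 0.0504, where 1 of the 4 is the ire-1 mutant itself, fat-6 0.28, grd-3 -0.0499 and sams-1 -0.011. With 1 array left out, the ranges that cross 0 were -0.0171 to 0.2267 for F09C8.1, -0.0327 to 0.0761 for F36F2.2, -0.1956 to 0.0251 for F58G6.3, -0.0788 to 0.124 for T22B7.3, -0.2315 to 0.1765 for T24B8.4, -0.6104 to 0.5652 for abu-6, -0.0272 to 0.1172 for lact-2, -0.048 to 0.0717 for mab-31 and -0.0415 to 0.0618 for pek-1. Signal near the floor limits the size of differences toward dim genes.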

Other observations

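Heterochronic genes, which time the larval stages, were not in a list of their own and were picked after the values were seen, so no test is drawn from them as a group. The genes below are not all that were looked at. lin-41 stands in the oocyte and eggshell list, where no member was more than 0.96 higher in the mutant. lin-29 and lin-42 stand in the moulting list, where lin-29 was the member lower in the mutant. lin-14, a factor of the earliest larval stages, read 7.01, 7.78 and 7.46 with RNAi and 9.56, 9.64 and 9.68 in the mutant, 2.21 higher. lin-28 read 6.04, 5.50 and 5.88 with RNAi and 7.26, 7.30 and 7.53 in the mutant, 1.56 higher. hbl-1 was 2.06 higher (SE 0.44) and daf-12 1.11 higher. mab-10, a partner of lin-29 in the adult skin, was 1.84 lower, with 7.09, 7.89 and 7.29 on RNAi arrays against 5.61, 5.35 and 5.78 in the mutant. lin-46 lay near the floor in both groups, between 2.89 and 3.35, with a difference of 0.11 that did not pass (limma adjusted p = 0.756).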
